A study of Rattus norvegicus with 6 samples.

Results

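The genes described here are the 3 Period genes Per1, Per2 and Per3, the cryptochromes Cry1 and Cry2, and the casein kinase 1 genes Csnk1d and Csnk1e. They were taken from the deposited expression table by their names: a transcript was counted as a member where the RefSeq rat annotation gives its accession to one of these 7 symbols. Each of the 7 genes had 1 transcript in the table, so 7 of 13647 transcripts, or 7 of 13104 genes and unmatched transcripts, make up the set. All 7 passed the filter on low values, a mean of at least 1 FPKM over the 6 animals. Expression is given as FPKM, the fragments mapped to a transcript divided by its length and by the depth of the library.

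Adult male Wistar rats, 6 in all and each without its pineal gland, gave RNA from the epithelium that lines the colon. The melatonin group had 3 animals, numbered 4, 5 and 6, that received 1 mg/kg melatonin into the peritoneal cavity. The vehicle group had 3 animals, numbered 1, 2 and 3, that received 2.5% ethanol in PBS by the same route. The solvent of the melatonin is not given in the sources used here, so whether the groups were matched for ethanol is unknown. Injections were given as subjective night began and tissue was taken 4 h later, so the data hold 1 time of day and no rhythm can be read from them. Pinealectomy, the operation that all 6 animals share, removes the main source of circulating melatonin, but the gut wall also makes the hormone.

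In mammalian cells the circadian clock is a loop of transcription and translation. CLOCK and BMAL1 bind E-box sequences and switch on the Period and cryptochrome genes, whose proteins gather in a complex that then blocks CLOCK and BMAL1. Casein kinase 1 delta and epsilon travel with this complex and mark Period proteins for breakdown, which sets how long the repression lasts. Per1 and Per2 also respond within hours to outside signals such as glucocorticoids, feeding and cAMP, and colonic epithelium is among the tissues with a clock of its own.

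The libraries were alike in depth and held colonic epithelium. Steps between low FPKM values put the depth at 3305000 to 3610000 mapped fragments per library. The summed level of 8 epithelial markers, such as Epcam and Krt20, was 10280, 11340 and 11382 FPKM in melatonin animals 4, 5 and 6, against 11319, 9925 and 10845 FPKM in vehicle animals 1, 2 and 3. Smooth muscle markers (5 of 6 in the table) summed to 9.61 to 14.28 FPKM after melatonin and 8.37 to 12.74 FPKM after vehicle, with Acta2 and Actg2 at 0 in every vehicle animal. Markers of enteric nerve and glia (4 of 6 in the table) summed to 0.47 to 0.82 FPKM after melatonin and 0.46 to 2.41 FPKM after vehicle, with Elavl4 and Uchl1 at 0 in all but vehicle animal 2. In bulk tissue, fewer cells of a type and less RNA per cell cannot be told apart.

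Levels, in FPKM and so per length, differed widely between the genes. Per2 was the most abundant, with a mean of 106.9 FPKM over the 6 animals, and its lowest animal (81.27) lay above the highest animal of every other member. Csnk1d followed at 57.9 FPKM. Per3 (43.3), Per1 (39.8) and Cry2 (36.7) came next, and the ranges of these 3 genes over the animals overlapped, so their order is not separated from the spread between animals. Csnk1d and Per3 also overlapped, through Per3 in vehicle animal 2. Cry1 stood lower at 18.9 FPKM. Its range met that of Cry2 only through Cry2 in melatonin animal 6 (21.43) and Cry1 in vehicle animal 3 (22.19). Within each of the 6 animals Cry2 was the higher, at 1.06 to 2.33 times Cry1. Csnk1e was the least abundant at 10.2 FPKM, and its highest animal (13.67) lay below the lowest for Cry1 (16.85). Among the 10137 features tested, Per2 ranked 853 by mean FPKM, Csnk1d 1690, Cry1 4598 and Csnk1e 6482.

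**Figure D1:**
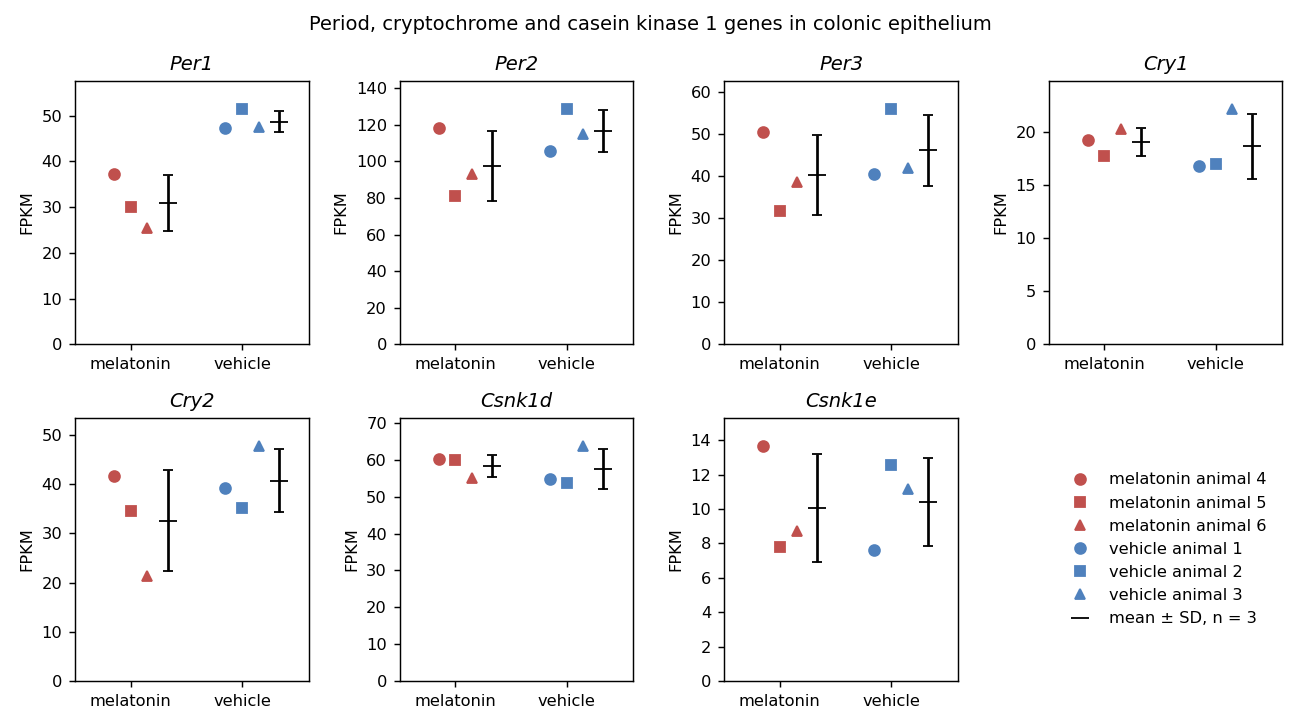
FPKM of the 7 genes in each animal (vertical axes, from 0), with melatonin animals on the left and vehicle animals on the right of each panel, and the mean with SD of each group in black (n = 3). The 3 melatonin animals lie below the 3 vehicle animals for Per1, and the groups overlap for the other 6 genes.

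The comparison of melatonin with vehicle asks whether the injected hormone changes expression in the colonic epithelium within hours. Of the 7 clock repressor genes, Per1 alone had every melatonin animal below every vehicle animal. Per2, Per3 and Cry2 had lower means after melatonin through animals 5 and 6, while animal 4 lay inside the vehicle range for these 3 genes. Melatonin means stood at 102% of the vehicle mean for Cry1, 102% for Csnk1d and 96.5% for Csnk1e. None of the 7 passed the test: with limma on log2(FPKM + 1) and Benjamini-Hochberg adjustment over 10137 features, 0 of 7 were higher and 0 of 7 lower at an adjusted p under 0.05, where the share of all features called was 0.0% in each direction. At an unadjusted p under 0.05, 1 of 7 (Per1) was lower, against 1.92% of all features, and 0 of 7 were higher, against 1.82%. limma voom on estimated reads called 0 features as well, and its unadjusted p was under 0.05 for 166 higher (1.64%) and 181 lower ones (1.79%), with Per1 the 1 of 7 among the lower. These shares moved with the fit and with melatonin animal 4. With sample quality weights in voom, 2 of 7 (Per1 and Per2) were lower at an unadjusted p under 0.05, against 3.68% of all features (3.78% higher). With limma without melatonin animal 4, 3 of 7 (Per1, Per2 and Cry2) were lower, against 6.63% of all features (4.74% higher). Leaving out any other single animal left 1 of 7 lower, Per1, and 0 of 7 higher. In those fits 118 to 208 of the 10137 features were lower and 125 to 256 higher. No two-sided exact permutation test of 1 gene can go below p = 0.1 with 3 animals against 3.

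Per1 encodes the Period protein whose gene responds quickly to outside signals. It was listed at 37.35, 29.97 and 25.33 FPKM in melatonin animals 4, 5 and 6, against 47.22, 51.43 and 47.52 FPKM in vehicle animals 1, 2 and 3. The groups did not overlap, and a gap of 9.87 FPKM lay between the highest melatonin animal and the lowest vehicle animal. All 3 melatonin animals below all 3 vehicle animals was found for 4.33% of the features tested, and the opposite order, which 0 of 7 members showed, for 4.04%. The group means were 30.9 ± 6.06 FPKM after melatonin and 48.7 ± 2.35 FPKM after vehicle (SD, n = 3 each), so melatonin animals stood at 63.4% of the vehicle level. The log2 change, melatonin minus vehicle, was -0.66 ± 0.15 (SE), with a 95% interval from -0.995 to -0.32 that is not adjusted for the number of features (limma adjusted p = 0.972). By its p-value Per1 ranked 14 of the 10137 features. In the authors' deposited table, which rests on the same 6 animals, Per1 ranked 146 of 13647 transcripts by its score. Cry2 ranked 794, Per2 883 and Per3 2074 by that score, and Csnk1e 10059, Cry1 10768 and Csnk1d 10794.

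The spread of Per1 was unequal between the groups. Vehicle animals differed little, with an SD of 4.82% of the mean, and melatonin animals differed more, with an SD of 19.6%. Per1 rested on 358 to 674 estimated reads per library, with a counting error of 5.28% at the lowest, so the spread between melatonin animals was larger than counting error.

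Per2 encodes the Period protein around which the repressor complex is built. It was listed at 118.33, 81.27 and 92.88 FPKM in melatonin animals 4, 5 and 6, against 105.77, 128.52 and 114.92 FPKM in vehicle animals 1, 2 and 3. Animals 5 and 6 lay below all vehicle animals and animal 4 lay between them, so the groups overlapped. The means were 97.5 ± 19.0 FPKM after melatonin and 116.4 ± 11.4 FPKM after vehicle (SD, n = 3 each). The log2 change was -0.27 ± 0.15 (limma adjusted p = 0.972), with a 95% interval from -0.61 to 0.073. With 1679 to 2431 estimated reads per library, counting error (2.44% at the lowest) was small beside the spread between animals.

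Per3 encodes the third Period protein, whose loss disturbs the rhythm less than that of the other two in mice. It was listed at 50.63, 31.78 and 38.70 FPKM in melatonin animals 4, 5 and 6, against 40.61, 55.98 and 41.87 FPKM in vehicle animals 1, 2 and 3. As with Per2, animals 5 and 6 were below all vehicle animals, and animal 4 was above 2 of the 3. The log2 change was -0.20 ± 0.19 (limma adjusted p = 0.972), with a 95% interval from -0.64 to 0.24.

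The stretch before each gene's annotated start is shown for the 3 repressors with the most negative changes. E-boxes and D-boxes are among the sites through which the clock acts on its own genes. Promoters came from RefSeq (build GRCr8), where 5 of the 7 genes had an entry, and each covers the 250 bases before the start, on the gene's own strand: chr10:54304126-54304375 (plus strand), chr9:99496994-99497243 (minus strand) and chr3:98860438-98860687 (minus strand). Capitals mark an E-box (CACGTG), a variant E-box (CACGTT), a D-box (TTATGTAA) or a cAMP response element (TGACGTCA), each searched on both strands.
Per1: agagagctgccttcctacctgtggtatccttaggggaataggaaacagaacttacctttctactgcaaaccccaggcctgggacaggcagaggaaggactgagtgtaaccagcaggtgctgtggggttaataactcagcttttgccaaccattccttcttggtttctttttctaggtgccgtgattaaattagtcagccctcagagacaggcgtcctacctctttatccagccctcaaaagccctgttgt
Per2: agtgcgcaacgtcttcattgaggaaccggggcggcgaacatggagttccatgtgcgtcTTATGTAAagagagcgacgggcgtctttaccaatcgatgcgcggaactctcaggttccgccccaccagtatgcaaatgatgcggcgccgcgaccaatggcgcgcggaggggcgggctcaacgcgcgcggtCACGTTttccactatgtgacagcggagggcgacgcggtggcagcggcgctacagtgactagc
Cry2: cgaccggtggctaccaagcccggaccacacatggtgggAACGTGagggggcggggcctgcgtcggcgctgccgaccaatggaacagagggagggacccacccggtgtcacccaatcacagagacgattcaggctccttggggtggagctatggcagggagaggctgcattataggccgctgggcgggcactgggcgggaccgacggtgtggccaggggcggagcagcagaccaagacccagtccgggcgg

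The Per2 window held a D-box that begins 192 bases before the start and a variant E-box that begins 62 bases before it. The Cry2 window held 1 variant E-box on the other strand, 212 bases before the start. The Per1 window held none of the 4 motifs, which says only that these letters are not in the 250 bases before this annotated start. None of the 4 was in the windows of Per3 or Csnk1e. Of 33469 promoters of the same length, 5.59% held CACGTG, 4.07% CACGTT, 0.828% TTATGTAA and 1.59% TGACGTCA. The shorter core TGACG, which lies within TGACGTCA, was in the windows of Per3 and Csnk1e and in 18.2% of all promoters. Such matches describe letters and not occupied sites.

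Cry2 encodes the cryptochrome that forms the weaker repressor of the pair. It was listed at 41.64, 34.66 and 21.43 FPKM in melatonin animals 4, 5 and 6, against 39.32, 35.09 and 47.80 FPKM in vehicle animals 1, 2 and 3. Animal 6 stood far below the rest, animal 5 just below the lowest vehicle animal, and animal 4 inside the vehicle range. The means were 32.6 ± 10.3 FPKM after melatonin and 40.7 ± 6.47 FPKM after vehicle (SD, n = 3 each). The log2 change was -0.35 ± 0.23 (limma adjusted p = 0.972), with a 95% interval from -0.89 to 0.18. Without melatonin animal 6 it was -0.087.

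Cry1 encodes the stronger repressor, whose mRNA peaks later in the cycle than that of the Period genes in other tissues. It was listed at 19.25, 17.74 and 20.29 FPKM in melatonin animals 4, 5 and 6, against 16.85, 17.01 and 22.19 FPKM in vehicle animals 1, 2 and 3. Every melatonin animal lay inside the vehicle range. The log2 change was 0.039 ± 0.15 (limma adjusted p = 0.984), and the 95% interval from -0.30 to 0.37 leaves room for changes in either direction. Melatonin animal 6, which had the lowest Cry2, thus had the highest Cry1 of its group.

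The kinase genes differed between the groups by less than the spread between animals. Csnk1d, which encodes casein kinase 1 delta, was listed at 60.22, 59.90 and 54.95 FPKM in melatonin animals 4, 5 and 6, against 54.80, 53.78 and 63.77 FPKM in vehicle animals 1, 2 and 3. Its log2 change was 0.025 ± 0.11 (limma adjusted p = 0.986), and its 95% interval, from -0.22 to 0.27, was the narrowest of the 7. Csnk1e, which encodes casein kinase 1 epsilon, was listed at 13.67, 7.79 and 8.73 FPKM in melatonin animals, against 7.59, 12.54 and 11.16 FPKM in vehicle animals. Both groups of Csnk1e had 1 animal apart from the other two, high for melatonin animal 4 and low for vehicle animal 1. Its log2 change was -0.058 ± 0.25 (limma adjusted p = 0.986), with a 95% interval from -0.63 to 0.51. Csnk1e rested on 33 to 58 estimated reads per library, a counting error of 17.5% at the lowest, and its transcript model of 1251 bases was the shortest of the 7. The kinases are close relatives, and how the authors treated reads that fit both is not given in the sources used here.

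Animals 5 and 6 differed from animal 4 in Per2, Per3 and Cry2. Animal 5 and animal 6 each lay below all 3 vehicle animals for 4 of 7 genes, in both cases Per1, Per2, Per3 and Cry2. Over all features tested, 26.7% lay below all vehicle animals in animal 5 and 41.0% in animal 6. Animal 4 did so for 1 of 7, Per1, against 17.6% of all features. On the log2(FPKM + 1) scale the distance of Per1 to the vehicle mean was -0.37, -0.68 and -0.92 for animals 4, 5 and 6. Per2 lay at 0.028, -0.51 and -0.32 in the same animals and Cry2 at 0.042, -0.22 and -0.88. Without melatonin animal 4, 4 of 7 genes had every melatonin animal below every vehicle animal, against 18.1% of all features, a count added after the data were seen. None of the 4 passed then either, and the smallest limma adjusted p among the 7 was 0.112, for Per1, with a log2 change of -0.80.

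**Figure D2:**
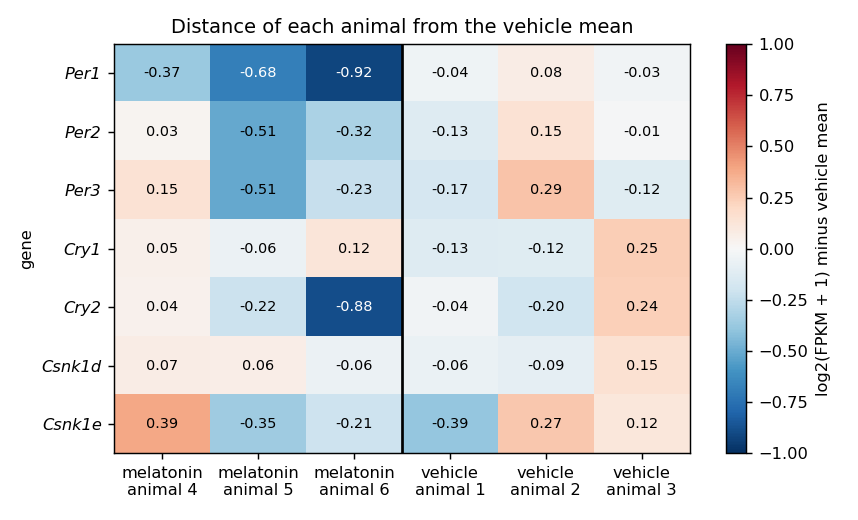
Difference of each animal from the vehicle mean on the log2(FPKM + 1) scale, with genes down the side and animals across (melatonin on the left, vehicle on the right of the line), blue for lower and red for higher values. The Per1 row is negative in all 3 melatonin animals, at -0.37, -0.68 and -0.92, while Per2, Per3 and Cry2 are negative in melatonin animals 5 and 6 and positive in melatonin animal 4. Vehicle animals have both signs for each gene.

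Interferon-stimulated genes separated the same animals. The summed level of 15 such genes was 118, 328 and 344 FPKM in melatonin animals 4, 5 and 6, against 148, 128 and 139 FPKM in vehicle animals 1, 2 and 3. Markers of T and NK cells (7 of 8 in the table) summed to 6.41, 12.5 and 23.0 FPKM in melatonin animals 4, 5 and 6, against 10.5, 10.6 and 3.15 FPKM in vehicle animals, with Cd3d at 0 in melatonin animals 4 and 5 and vehicle animal 3. Markers of B and plasma cells (3 of 6 in the table) summed to 8.38, 1.17 and 0.0 FPKM in melatonin animals, against 0.70, 1.66 and 1.07 FPKM in vehicle animals, and Mzb1 was at 0 in all but melatonin animal 4. Sums for macrophage markers (5 of 5 in the table) ran from 101.4 to 138 FPKM after melatonin and from 94.3 to 155 FPKM after vehicle, nearly all of it Cd14, and those for fibroblasts and endothelium (6 of 6 in the table) from 3.79 to 6.95 FPKM after melatonin and from 3.45 to 7.82 FPKM after vehicle. The part of these lists in the values of the clock repressors was not tested.

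Ratios taken within an animal do not depend on the scaling of its library. The ratio of Per1 to Per2 was 0.316, 0.369 and 0.273 in melatonin animals 4, 5 and 6, against 0.446, 0.400 and 0.414 in vehicle animals 1, 2 and 3, and the groups did not overlap. The ratio of Per1 to Per3 did overlap, at 0.738, 0.943 and 0.655 in melatonin animals, against 1.16, 0.919 and 1.13 in vehicle animals, through melatonin animal 5 and vehicle animal 2. Per1 made up 18.1%, 21.0% and 16.1% of the summed FPKM of the 3 Period genes in melatonin animals, against 24.4%, 21.8% and 23.3% in vehicle animals. The ratio of Per2 to Per3 overlapped between the groups, at 2.43 ± 0.113 in melatonin animals and 2.55 ± 0.230 in vehicle animals (SD, n = 3 each). The ratio of Cry2 to Cry1 was 2.16, 1.95 and 1.06 in melatonin animals 4, 5 and 6, against 2.33, 2.06 and 2.15 in vehicle animals, so animal 4 lay inside the vehicle range, animal 5 just below it and animal 6 far below it. The ratio of Csnk1d to Csnk1e overlapped widely, at 6.13 ± 1.65 in melatonin animals and 5.74 ± 1.47 in vehicle animals. These ratios were chosen with the values known and are given without a test. How often ratios between features separate the groups was not counted. Ratios and shares with Per1 reuse the Per1 values given above and are not separate evidence.

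**Figure D3:**
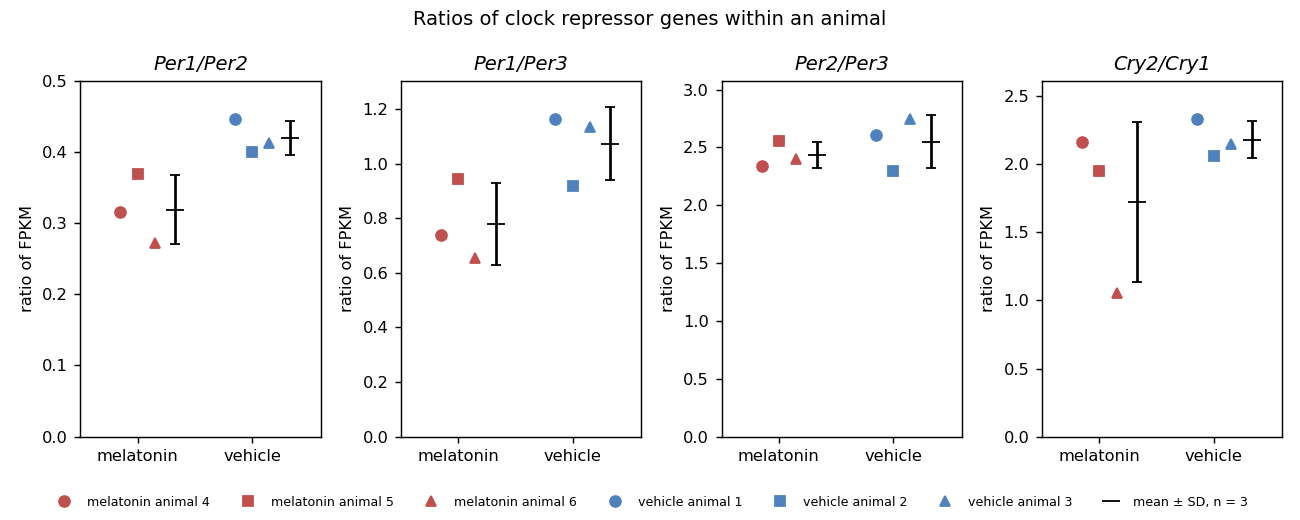
Ratio of FPKM between pairs of genes in each animal (vertical axes, from 0), melatonin animals on the left and vehicle animals on the right of each panel, with the mean and SD of each group in black (n = 3). Per1 to Per2 is lower in every melatonin animal (0.273 to 0.369) than in any vehicle animal (0.400 to 0.446), and Cry2 to Cry1 is below every vehicle animal in melatonin animals 5 (1.95) and 6 (1.06). The ratios were chosen with the values known, and how often ratios between features separate the groups was not counted.

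The other arms of the loop were read beside the repressors. Of the activators, 5 of 7 listed genes were in the table and 0 of 5 passed the limma test in either direction. Clock averaged 16.15 ± 2.44 FPKM after melatonin and 16.2 ± 1.62 FPKM after vehicle, and its stand-in Npas2 averaged 38.6 ± 11.0 FPKM after melatonin and 42.9 ± 6.63 FPKM after vehicle. Bmal1 had a log2 change of 0.17 ± 0.22 and its relative Bmal2 one of 0.16 ± 0.20, while the coactivator Crebbp had one of -0.16 ± 0.19. Over the 5 the median log2 change was -0.014, against -0.018 over all features tested. For the 7 repressors and kinases the median was -0.20, with 5 of 7 below 0, where 54.0% of all features lay below 0.

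Of the further repressors and the stabilising loop, 5 of 9 listed genes were in the table, 4 were tested, and 0 of 4 passed in either direction. All 4 had negative changes, with a median of -0.48. Ciart, a repressor that acts on the CLOCK and BMAL1 complex, was listed at 29.64, 23.36 and 23.42 FPKM in melatonin animals, against 41.45, 60.65 and 26.98 FPKM in vehicle animals (log2 change -0.67 ± 0.26, limma adjusted p = 0.972). Nr1d1, a nuclear receptor that represses Bmal1, was listed at 69.63, 67.82 and 61.17 FPKM in melatonin animals, against 96.01, 132.37 and 65.00 FPKM in vehicle animals (log2 change -0.50 ± 0.23). Its relative Nr1d2 had a log2 change of -0.22 ± 0.16, and Bhlhe40, which competes for E-boxes, one of -0.46 ± 0.21. Vehicle animal 2 was the highest of the 6 animals for all 4 genes, and vehicle animal 3 lay within the melatonin range for Ciart, Nr1d1 and Nr1d2. Nfil3, which opposes Dbp at D-boxes, was under the filter at 0.44, 1.85 and 0.86 FPKM in melatonin animals, against 0.29, 0.16 and 0.58 FPKM in vehicle animals. Of the PAR bZIP output genes, which act through D-boxes, 0 of 2 passed. Dbp, a direct target of CLOCK and BMAL1, was listed at 109.57, 89.70 and 108.70 FPKM in melatonin animals, against 143.52, 192.31 and 134.37 FPKM in vehicle animals (log2 change -0.59 ± 0.15, limma adjusted p = 0.972). Its melatonin animals all lay below its vehicle animals, as for Per1 and for 4.33% of all features tested. Tef had a log2 change of -0.22 ± 0.16.

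**Figure D4:**
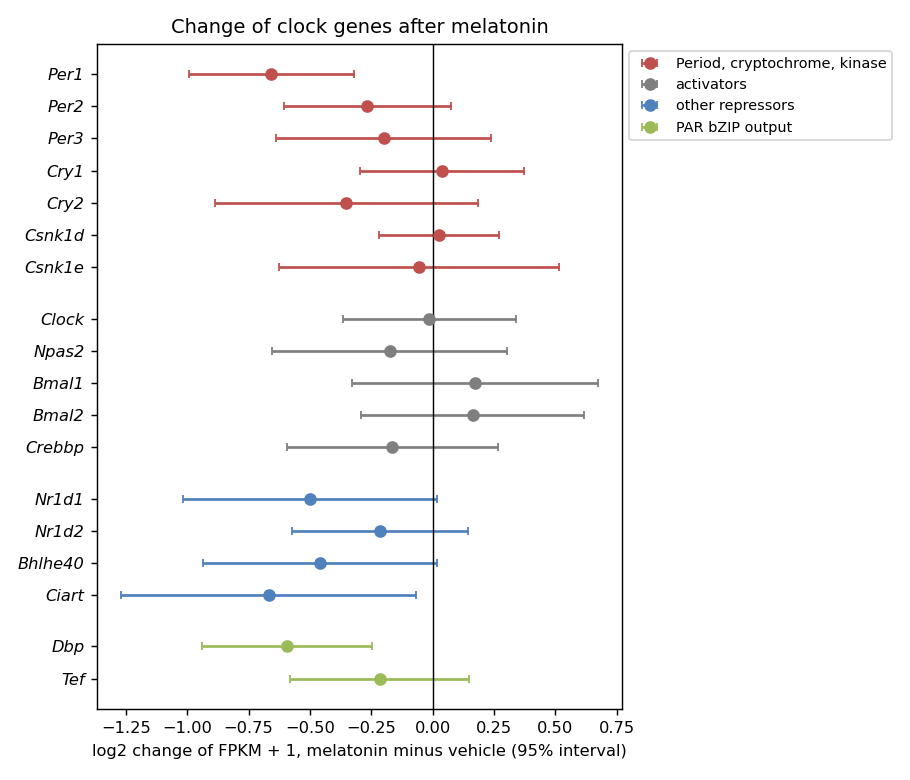
Log2 change of FPKM + 1, melatonin minus vehicle, with its 95% interval from limma (horizontal axis; intervals not adjusted for the number of genes) for the 7 repressor and kinase genes and 11 other clock genes (n = 3 animals per group). The intervals of Per1, Ciart and Dbp lie below 0, the other 15 include 0, and no gene passes the adjusted threshold. Such an interval lies off 0 where the unadjusted limma p is under 0.05. Among all 10137 features tested, 1.92% were lower and 1.82% higher at that cutoff.

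Genes whose proteins decide how long Period and cryptochrome proteins last were read next. Of the turnover genes, 7 of 9 were in the table, 0 of 7 passed in either direction, and log2 changes ran from -0.20 to 0.18. The most abundant, Skp1 of the SCF ubiquitin ligase, averaged 240 FPKM after melatonin and 256 FPKM after vehicle, and the deubiquitinase Usp7 47.7 FPKM after melatonin and 47.8 FPKM after vehicle. The deubiquitinase Usp2 had a log2 change of -0.20 ± 0.16. All 16 of the other kinases and phosphatases were tested, 0 of 16 passed, 8 were positive and 8 negative, and the range was -0.15 to 0.11. Ppp1cc, a catalytic subunit of protein phosphatase 1, had a log2 change of -0.15 ± 0.12, its sister subunit Ppp1cb one of -0.040 ± 0.12, and the kinase gene Gsk3a one of -0.10 ± 0.11. Of the nuclear partners of the Period complex, 9 of 12 were in the table and 0 of 9 passed. Cbx3, a heterochromatin protein, was listed at 35.03, 37.13 and 25.96 FPKM in melatonin animals, against 43.00, 41.73 and 41.65 FPKM in vehicle animals, without overlap (log2 change -0.37 ± 0.14, limma adjusted p = 0.972). Sfpq, an RNA-binding protein, was listed at 79.77, 77.16 and 85.93 FPKM in melatonin animals, against 73.76, 65.05 and 72.39 FPKM in vehicle animals, the reverse order and also without overlap (log2 change 0.20 ± 0.098, limma adjusted p = 0.972). Cbx3 and Sfpq were named because their p-values were the 2 smallest of their list. All melatonin animals lay below all vehicle animals for 4.33% of the features tested, and above them for 4.04%. The abundant partners Ddx5 and Hdac1 had log2 changes of -0.081 ± 0.11 and 0.12 ± 0.14.

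Per1 belongs to the genes that glucocorticoids and cAMP induce, so lists of both kinds were read as well. Of 12 glucocorticoid-induced genes other than Per1, 0 passed in either direction, 7 were positive and 5 negative, and the median log2 change was 0.036. Klf9 was listed at 23.47, 20.52 and 17.87 FPKM in melatonin animals 4, 5 and 6, against 35.91, 31.22 and 27.14 FPKM in vehicle animals, without overlap (log2 change -0.58 ± 0.15, limma adjusted p = 0.972). It was named because its p-value was the smallest of its list. All melatonin animals below all vehicle animals was found for 4.33% of the features tested. Cebpd had a mean in the other direction, at 10.8 ± 5.88 FPKM after melatonin and 3.80 ± 1.54 FPKM after vehicle. Its values were 4.93, 10.85 and 16.69 FPKM in melatonin animals 4, 5 and 6, against 5.57, 2.76 and 3.07 FPKM in vehicle animals. Animal 4 thus lay inside the vehicle range. Sgk1 had a log2 change of -0.45 ± 0.33 and Cdkn1a one of 0.0125 ± 0.16. Of the CREB and immediate early genes, 13 of 14 were in the table, 0 of 13 passed, and the median log2 change was 0.065. Fos, which is switched on by cAMP and growth signals, averaged 153 ± 27.7 FPKM after melatonin and 139 ± 38.8 FPKM after vehicle, and Junb 136 ± 9.28 FPKM after melatonin and 131 ± 24.2 FPKM after vehicle. Egr1 was listed at 5.96, 5.79 and 28.44 FPKM in melatonin animals, against 4.50, 5.11 and 6.25 FPKM in vehicle animals, and Crtc1, a coactivator of CREB, had a log2 change of 0.30 ± 0.20.

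For each member the 3 genes with the most similar pattern over the 6 animals were found by Pearson correlation of log2(FPKM + 1). The search ran among 7658 genes with a mean of at least 5 FPKM, and it compares neither levels nor sizes of change. With 6 animals high values are common: between 26 genes (for Cry1) and 317 genes (for Cry2) had r above 0.9, so these are descriptions of a shared order of animals. Per1 was most like Acap2 (r = 0.992), Dll1 (0.989) and Prpf6 (0.988). Per2 was most like Proser3 (r = 0.997), Vegfb (0.996) and Rc3h2 (0.987), and Per3 most like Pard3b (r = 0.998), Prss32 (0.993) and Fam149b1 (0.991). Among the genes most like Cry1 were Baiap2l1 and Cdkn1a (r = 0.97 each). Cry2 was most like Aldh6a1, Ppp1cc and Add1 (r = 0.99 each). Csnk1d was most like Kiaa0232, Cox7a2 and Impa1 (r = 0.98 to 0.99), and Csnk1e most like Sppl2b, Glcci1 and Cxxc5 (r = 0.99 each). None of the genes named here is another member of the set.

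Leaving out each animal in turn showed which of the 7 changes rest on 1 animal. The log2 change of Per1 stayed between -0.80 and -0.53, with the value nearest to 0 reached without melatonin animal 6. For Per2 it came nearest to 0 without melatonin animal 5 (-0.145), and so it did for Per3 (-0.044). Without vehicle animal 2 the change of Per3 was -0.055. The change of Cry2 was -0.087 without melatonin animal 6, against -0.35 with all 6 animals. Cry1, Csnk1d and Csnk1e, whose changes were small beside their errors, took both signs.

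**Figure D5:**
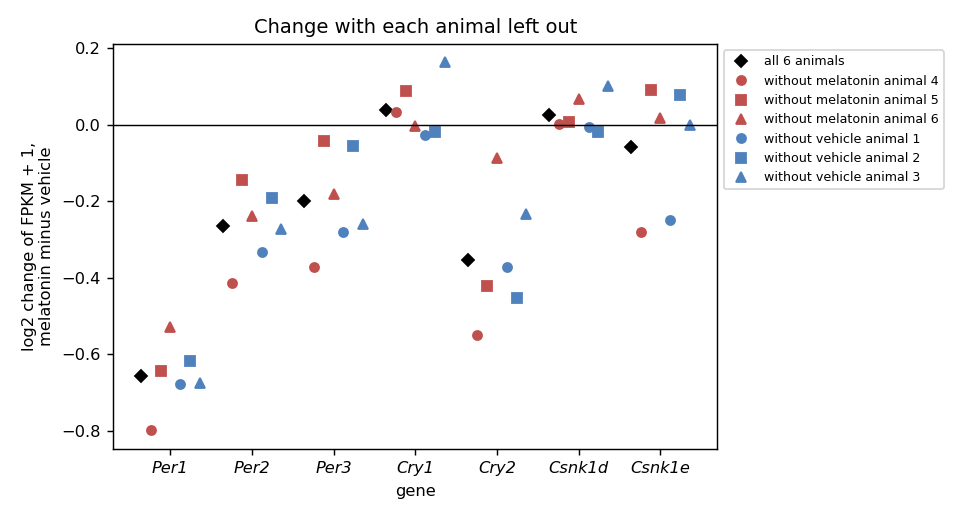
Log2 change of FPKM + 1, melatonin minus vehicle (vertical axis), for each of the 7 genes with all 6 animals (black diamond) and with each animal left out (red for a melatonin animal, blue for a vehicle animal). Per1 ranges from -0.80 to -0.53, the other Period genes and Cry2 stay below 0, and Cry1, Csnk1d and Csnk1e lie on both sides of 0.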

How the data were processed

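Per the labels' protocols, mRNA was enriched on oligo(dT) beads before random priming. No step that marks the strand is given, so reads of a gene and of an antisense partner cannot be told apart. The authors deposited FPKM values per transcript and animal, with 2 decimals. The deposited table also gives transcript lengths, the log2 ratio of the authors' group means and a score headed as a probability, made with software not given in the sources used here. BWA 0.7.10-r789, Bowtie2, RSEM and the build rn6 are named in the submitters' processing notes, without their roles.

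Transcripts were matched by accession to RefSeq symbols (12883 of 13647) and FPKM was summed per gene. limma 3.58.1 (R 4.3.3, empirical Bayes with trend, two-sided) was fitted to log2(FPKM + 1) in the 6 animals, for 10137 features with a mean of at least 1 FPKM. Benjamini-Hochberg adjusted p-values used a threshold of 0.05. On this scale the change of low genes is understated. The procedure was tested on simulated data with independent animals and equal spread in both groups, which does not cover groups of unequal spread. Reads were estimated from FPKM, length less 38 bases and depth. At that offset, 86.3% to 94.0% of low values in short transcripts lay within 0.1 of a whole read. The range of depths searched was narrowed after a wider search had settled at a higher depth, where 96.0% to 99.2% of the whole read numbers in each of the 6 libraries were even. The depth enters only the estimated reads and the voom fits. Each animal is its own sample. The planned count test could not be used on FPKM.

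The members and gene lists were chosen with earlier results of these data known. Named were all members, the clock genes of the activator, repressor and PAR bZIP lists, and, of each other list, the 2 genes with the highest mean FPKM and the 2 with the smallest p; some genes that this rule or the search for similar genes names are not reported here. Listed genes with no row in the table were not analysed here. Alternatives were another scaling, another pseudocount, 2 other filters, 2 voom fits, transcripts tested singly and each animal left out.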

Additional observations from a re-analysis of the deposited data

How the results depend on the processing

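No paired analysis was possible because the numbers are 4 to 6 in the melatonin group and 1 to 3 in the vehicle group, with none shared. The number of features called was 0, and 1 (lower after melatonin) with no filter on low values. It was 4 (all higher after melatonin) without melatonin animal 4 and 3 (all higher) without vehicle animal 1. It was 1 (lower) without vehicle animal 2 and 0 without any of the others. None of the 7 genes passed under any of the 13 alternatives, where limma adjusted p-values ran from 0.112 to 1.0. Per1, Per2, Per3 and Cry2 had negative log2 changes in all 13. For Per1 the range was -0.80 to -0.53 with 1 animal left out and -0.68 to -0.64 in the other 7. With 1 animal left out, Per2 ranged from -0.41 to -0.145, Per3 from -0.37 to -0.044 and Cry2 from -0.55 to -0.087. The sign turned for Cry1 with sample quality weights (-0.030). With 1 animal left out, values ran from -0.026 to 0.16 for Cry1, from -0.020 to 0.10 for Csnk1d and from -0.28 to 0.090 for Csnk1e. The cause was not tested. The groups did not overlap, with melatonin lower, for 4 of the 7 genes without melatonin animal 4 (18.1% of all features) and for 1 without each of the others in turn (6.30% to 10.9%), which was looked at after seeing the data. Without vehicle animal 3, 2 of 7 (Cry1 and Csnk1d) had every melatonin animal above (6.97% of all features), and 0 of 7 did without any of the others. Features at an unadjusted p under 0.05 numbered 125 to 481 higher and 118 to 672 lower with 1 animal left out, most without melatonin animal 4 in both directions, against 185 and 195 with all 6. The depth limits Csnk1e most, at 33 to 58 estimated reads.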
